A study of Homo sapiens with 24 samples.

Results

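The genes for CDK inhibitors, the small proteins that hold cyclin-dependent kinases (CDKs) in check, were followed in human osteosarcoma cells treated with a histone deacetylase inhibitor, in WT cells and in cells labelled as ID3 knockout (ID3-KO). They were taken by gene name, 7 of the 57820 genes counted, by a rule that uses no measured value, although the family was picked with earlier results of these data known. The Cip/Kip branch comprised CDKN1A (p21), CDKN1B (p27) and CDKN1C (p57), whose proteins bind cyclin and kinase together. The INK4 branch comprised CDKN2A (p16, and ARF from another reading frame), CDKN2B (p15), CDKN2C (p18) and CDKN2D (p19), whose proteins bind the cyclin D partners CDK4 and CDK6. CDK activity lets cells pass from G1 into S phase by phosphorylating the pocket proteins, and the inhibitors oppose that step. CDKN1A is known to respond to deacetylase inhibitors. CDKN2A lies at a locus that is silenced or deleted in many tumours.

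RNA was sequenced from 24 libraries in 8 groups of 3 biological replicates. AID-DIvA U2OS cells, WT or ID3-KO, were untreated, or received mocetinostat (an inhibitor of class I histone deacetylases) for 24 h and then recovered for 24 h without it. U2OS cells, WT or ID3-KO, were untreated or received mocetinostat and were taken to have been collected before recovery, a stage read from the study's description. U2OS is an osteosarcoma line, and AID-DIvA cells are U2OS cells with an integrated vector for the restriction enzyme AsiSI, which tamoxifen sends to the nucleus. No induction of that enzyme and no mocetinostat dose were given for these libraries, and whether an ID3-KO line is 1 clone is not given in the sources used here. Recovery, cell line and library set coincide, as the libraries of each line form a set with its own style of titles. The effects of the recovery period, of the line and of the library set cannot be told apart. Titles and treatment annotations disagree for the AID-DIvA libraries, and the grouping here follows the titles.

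Total counts lay between 37878751 and 76906266 per library (median 56215341). Replicate 1 of the untreated U2OS WT cells stood apart from its group. The chi-square per gene between it and the other 2 libraries was 91.1 and 103, against 2.79 to 27.3 in all other replicate pairs. Many results that use it are therefore also given without it, but not those of genes outside the family. Transcripts of ID3, the targeted gene, were still counted in every ID3-KO library, at a lower level than in WT cells without overlap: 32.6 to 38.8 against 48.7 to 52.3 counts scaled to library size (CPM) in untreated AID-DIvA cells, and 29.1 to 32.1 against 51.6 to 79.7 in untreated U2OS cells. After treatment the ranges were 61.5 to 67.1 against 103 to 128 CPM in AID-DIvA cells and 30.3 to 40.6 against 77.9 to 88.9 CPM in U2OS cells. Of 9 osteoblast lineage markers 5 had a median above 1 TPM, which scales counts by gene length and library size, with COL1A1 and SPARC highest at medians of 453 and 768 TPM, whereas the osteoblast regulator SP7 had a median of 0.0154. Of 10 markers of other cell types 2 did, VWF at 1.02 TPM and EPCAM at 8.0, while the T cell marker CD3E had a median of 0.

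The 7 genes lie on 6 chromosomes (GRCh37, deposited gene coordinates). CDKN1A (ENSG00000124762.9) spans chr6:36644305-36655116 on the plus strand, CDKN1B (ENSG00000111276.6) chr12:12867992-12875305 on the plus strand, and CDKN1C (ENSG00000129757.8) chr11:2904443-2907111 on the minus strand. CDKN2C (ENSG00000123080.6) spans chr1:51426417-51440305 on the plus strand and CDKN2D (ENSG00000129355.6) chr19:10677138-10679735 on the minus strand. CDKN2A (ENSG00000147889.12) and CDKN2B (ENSG00000147883.9) are neighbours on the minus strand, at chr9:21967751-21995300 and chr9:22002902-22009362. Both overlap, on the opposite strand, the long noncoding gene CDKN2B-AS1, which had 1 to 9 counts per library as well as a further noncoding gene with 0 counts. The other 5 genes overlap no counted gene.

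The promoters of 3 genes are shown because their transcripts went different ways under mocetinostat: CDKN1A rose at both stages, CDKN1B fell at both, and CDKN2D fell after recovery but rose before it. Each run is the 250 bases before the RefSeq transcription start, on the strand of the gene, from RefSeq's GRCh38.p14 table, where these genes have a single start. Capitals mark GC boxes (GGGCGG on either strand, the core that Sp1-type factors bind) and E-boxes (CANNTG, the core that E proteins bind; ID proteins hold E proteins off DNA).
CDKN1A, chr6:36678464-36678713, plus strand: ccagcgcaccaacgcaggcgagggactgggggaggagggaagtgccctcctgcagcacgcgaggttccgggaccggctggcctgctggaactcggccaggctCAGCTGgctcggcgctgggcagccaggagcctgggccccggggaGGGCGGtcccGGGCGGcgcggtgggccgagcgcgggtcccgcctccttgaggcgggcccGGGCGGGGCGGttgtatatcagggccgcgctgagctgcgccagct
CDKN1B, chr12:12717118-12717367, plus strand: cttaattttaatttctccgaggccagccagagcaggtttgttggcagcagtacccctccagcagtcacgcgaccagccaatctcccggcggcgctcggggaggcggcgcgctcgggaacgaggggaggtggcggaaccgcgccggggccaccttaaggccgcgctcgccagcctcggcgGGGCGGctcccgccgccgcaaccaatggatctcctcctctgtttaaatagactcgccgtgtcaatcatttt
CDKN2D, chr19:10568980-10569229, minus strand: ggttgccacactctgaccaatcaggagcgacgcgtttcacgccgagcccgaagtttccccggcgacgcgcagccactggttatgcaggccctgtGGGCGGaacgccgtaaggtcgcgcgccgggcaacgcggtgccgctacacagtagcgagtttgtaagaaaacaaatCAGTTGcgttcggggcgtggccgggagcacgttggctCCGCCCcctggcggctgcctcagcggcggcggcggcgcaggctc

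In windows of 300 bases, which add the 50 bases after the start, CDKN1A held 4 GC boxes, at -104, -94, -45 and -40 from the start. Its 3 E-boxes, at -148, -5 and 11, all read CAGCTG. Of the 35116 windows in the table, 45.0% held a GC box and 15.8% held 3 or more, and 68.7% held an E-box and 15.3% held 3 or more. The form CAGCTG occurred in 17.9% of windows and 3 or more times in 0.205%. The CDKN1B window held 1 GC box and no match to CANNTG, and the CDKN2D window held 3 GC boxes and 1 E-box. CDKN2B held 2 GC boxes and 1 CAGCTG. CDKN2C, with 3 starts in the table, had 0, 6 and 1 GC boxes in its windows, and CDKN2A, with 2 starts, had 2 and 0. These are matches of letters, described without a test, and 6 of the 7 genes were in the table.

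CDKN1A made up most of the family's transcripts in 7 of the 8 groups. On the TPM scale, which allows levels to be compared between genes, the 7 genes summed to 301 ± 13.2 TPM in untreated AID-DIvA WT cells and 371 ± 35.6 in untreated AID-DIvA ID3-KO cells (SD, n = 3 each, as in all means below). CDKN1A accounted for 55.0% ± 0.970 and 48.8% ± 0.471 of these sums, CDKN1B for 16.0% ± 0.660 and 24.6% ± 0.0484, and CDKN2C for 19.3% ± 0.716 and 15.8% ± 0.277. CDKN2D took 8.25% and 8.90%, and CDKN1C under 2% in each group.

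After treatment and recovery the sums were 424 ± 50.6 TPM in WT and 403 ± 21.8 in ID3-KO AID-DIvA cells, and the CDKN1A share was 86.0% ± 0.168 and 80.7% ± 1.18. In U2OS cells the sum was 436 ± 22.9 TPM in untreated WT and 462 ± 17.4 in untreated ID3-KO cells, and 720 ± 20.1 and 694 ± 39.0 under mocetinostat. The level of CDKN1A relative to CDKN1B, both in TPM, was 3.44 ± 0.172 in untreated and 14.4 ± 0.437 in recovered AID-DIvA WT cells. In untreated and recovered AID-DIvA ID3-KO cells it was 1.99 ± 0.0158 and 8.22 ± 1.12. The U2OS cells followed the same order, with 6.69 ± 0.458 and 21.5 ± 0.548 in WT and 3.30 ± 0.0715 and 12.9 ± 1.26 in ID3-KO cells.

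**Figure D1:**
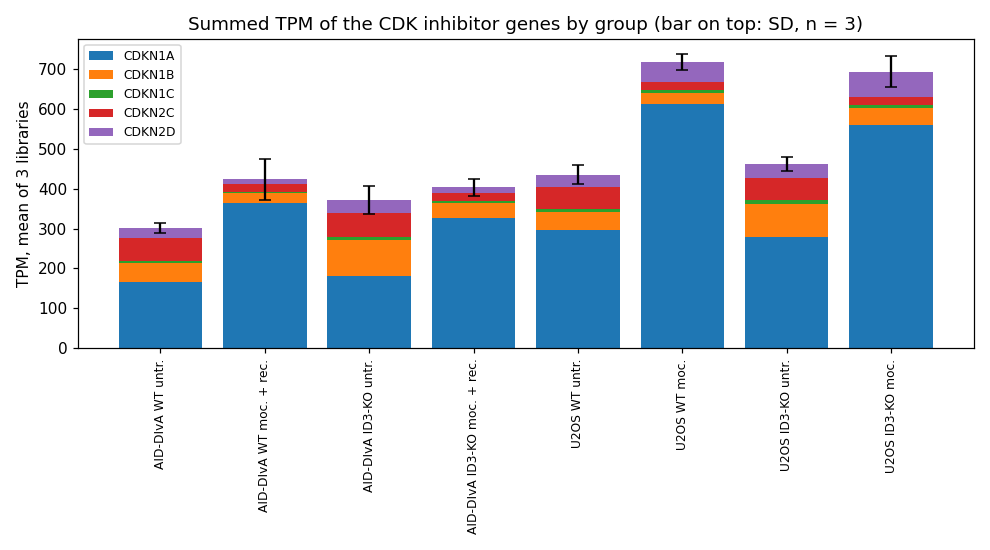
Stacked bars give the mean TPM of each CDK inhibitor gene in the 8 groups (3 libraries each), and the error bar is the SD of their sum; CDKN2A and CDKN2B, all group means below 0.32 TPM, are not drawn. CDKN1A fills 55.0% of the sum in untreated and 86.0% in recovered AID-DIvA WT cells.

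Mocetinostat changed the levels of most of the family. The test was edgeR's quasi-likelihood F test, and a gene was called where its p, adjusted by Benjamini-Hochberg over all genes tested in that comparison, was below 0.05. All adjusted p values below are of that kind. CDKN2B was too low to be tested in any comparison with all its libraries, and CDKN2A passed edgeR's filter on low counts only in comparisons that include treated U2OS cells. After recovery, CDKN1A rose and CDKN1B, CDKN1C, CDKN2C and CDKN2D fell, 5 of 5 tested, in WT cells as in ID3-KO cells. The background was high: 46.9% of the 20289 genes tested in WT (23.9% higher and 23% lower) and 40.1% of the 20362 tested in ID3-KO AID-DIvA cells (20.2% and 19.9%) were called. Before recovery 5 of 6 tested members were called in WT cells, 3 higher and 2 lower, where 48.9% of 21797 genes were (26% and 22.9%). All 6 tested were called in ID3-KO cells, 3 higher and 3 lower, where 69.9% of 21176 were (35.8% and 34%). CDKN2A is among these calls, and its reads came from the wrong strand, as given below. Without it the counts were 4 of 5 and 5 of 5. With a change beyond 1 on the log2 scale required as well, 2 and 3 members were called after recovery (WT and ID3-KO, background 7.38% and 7.46%) and 2 and 3 before it (18.6% and 20.3%). The counts before recovery again include CDKN2A (log2 4.83 and 3.19). Without it, CDKN2C alone was left in WT cells, and CDKN2C and CDKN1B were left in ID3-KO cells. Over the tested members the median log2 value was -0.85 in WT and -1.05 in ID3-KO cells after recovery, where the median of all genes was -0.00 and -0.02. Before recovery it was 0.11 and 0.25, against 0.01 and 0.00, with CDKN2A included. Without CDKN2A the median before recovery was the value of CDKN1C, -0.34 in WT and -0.29 in ID3-KO cells, so its sign depends on CDKN2A.

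**Figure D2:**
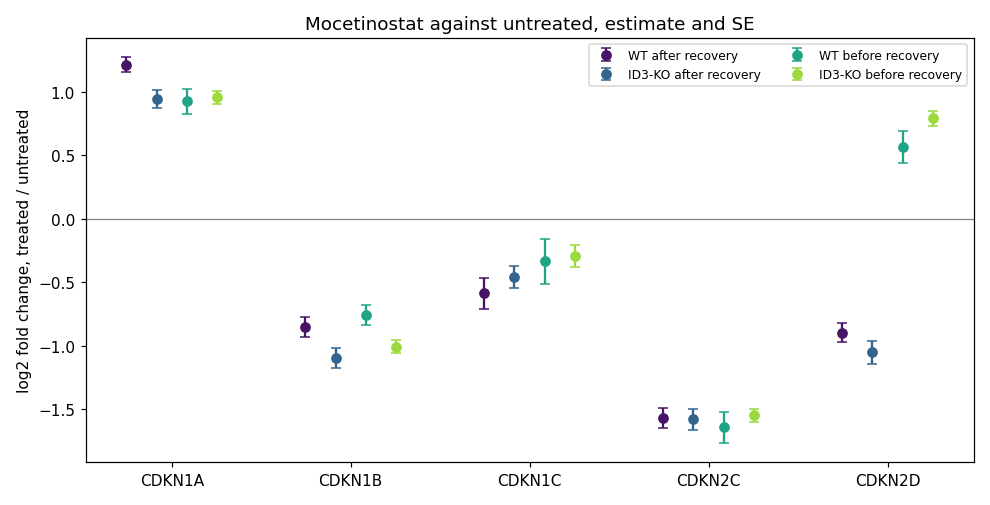
Points are log2 fold changes of mocetinostat-treated against untreated cells in the 4 treatment comparisons, with standard errors, each fitted on 6 libraries. CDKN1A lies between 0.92 and 1.21 and CDKN2C between -1.64 and -1.55 in all 4, and CDKN2D lies at -0.90 and -1.05 after recovery and at 0.56 and 0.79 before it.

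CDKN1A, whose product p21 inhibits CDK2 and CDK1 complexes, was the highest member in every group. In AID-DIvA WT cells its level was 159, 155 and 162 CPM untreated and 326, 378 and 382 after recovery. In AID-DIvA ID3-KO cells it was 177, 169 and 185 CPM untreated and 377, 324 and 323 after recovery. The treated libraries lay above the untreated ones with no overlap in both. The rise was 2.32-fold in WT cells (log2 1.21, SE 0.06, adjusted p = 4.0e-09) and 1.92-fold in ID3-KO cells (log2 0.94, SE 0.07, adjusted p = 7.3e-06).

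Before recovery the U2OS WT libraries had 304, 254 and 246 CPM of CDKN1A untreated and 503, 502 and 525 under mocetinostat. The U2OS ID3-KO libraries had 256, 247 and 244 CPM untreated and 514, 447 and 484 under mocetinostat. Again no treated library fell within the untreated range. CDKN1A rose 1.90-fold in WT cells (log2 0.92, SE 0.10, adjusted p = 0.00019) and 1.94-fold in ID3-KO cells (log2 0.95, SE 0.05, adjusted p = 5.4e-14). Without the library that stood apart, the WT rise was 1.03 on the log2 scale (SE 0.03).

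The order of CDKN1A levels ran from treated U2OS cells (510 ± 13.0 CPM in WT and 481 ± 33.8 in ID3-KO cells) through recovered AID-DIvA cells (362 ± 31.4 and 341 ± 30.8) and untreated U2OS cells (268 ± 31.6 and 249 ± 6.68) to untreated AID-DIvA cells (177 ± 8.11 in ID3-KO and 159 ± 3.29 in WT cells). Within the first 3 of these pairs the genotypes overlapped, and between the pairs no libraries did. Untreated AID-DIvA ID3-KO cells were above WT cells in every library, by 0.15 on the log2 scale (SE 0.05, adjusted p = 0.027). This call was lost in a fit of all 12 AID-DIvA libraries (adjusted p = 0.15) and without any 1 of 4 libraries: each of the 3 untreated WT libraries (adjusted p = 0.091, 0.12 and 0.065) and replicate 1 of the untreated ID3-KO cells (0.064). In the other 3 genotype comparisons CDKN1A was not called, with differences of -0.12 in untreated U2OS cells (95% interval -0.34 to 0.11, adjusted p = 0.47), -0.11 in recovered AID-DIvA cells (-0.29 to 0.07, adjusted p = 0.39) and -0.08 in treated U2OS cells (-0.17 to 0.01, adjusted p = 0.17). The last was called without replicate 1 of the treated ID3-KO cells (-0.12, adjusted p = 0.014). The difference in untreated U2OS cells was -0.01 without the library that stood apart (adjusted p = 0.83).

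**Figure D3:**
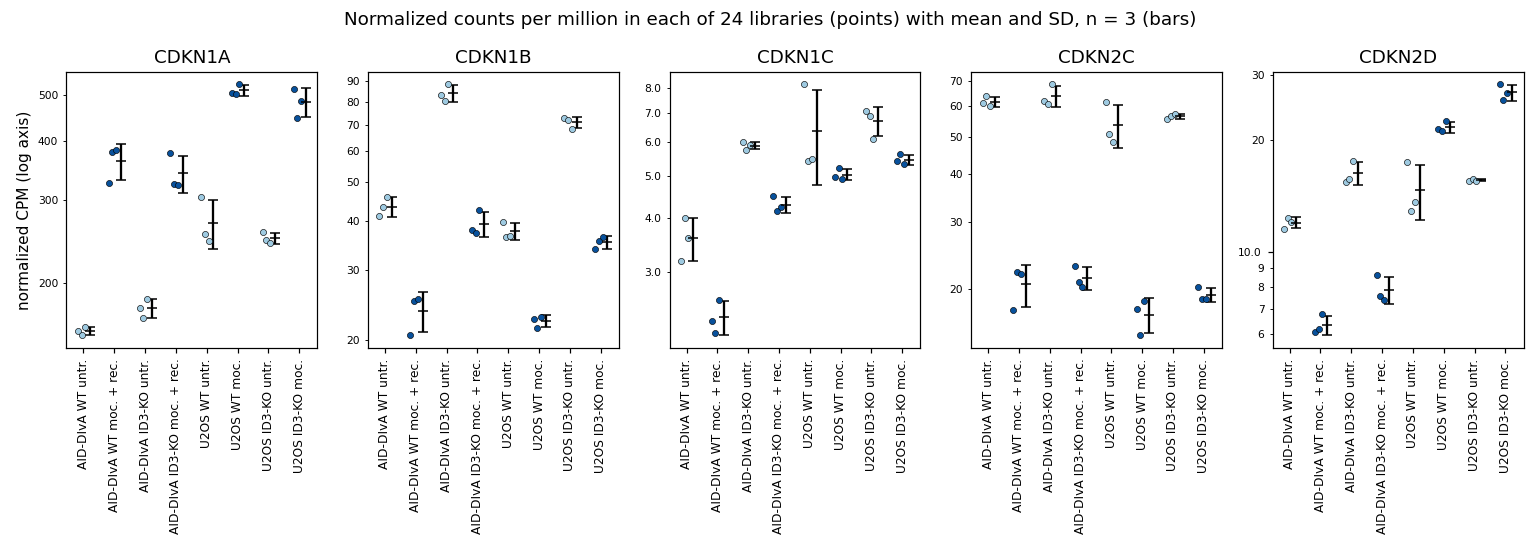
Points are TMM-normalized CPM on a log axis in each of the 24 libraries for the 5 members with more than 1 CPM, light for untreated and dark for treated groups, and the bars beside them are the mean and SD (n = 3). CDKN1B sits highest in the untreated ID3-KO cells of both lines, and replicate 1 of the untreated U2OS WT cells is the highest library of its group in all 5 panels.

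CDKN1B, whose product p27 binds cyclin E and CDK2 complexes and is removed by the ubiquitin ligase subunit SKP2 when cells enter S phase, went the other way. In AID-DIvA cells it stood at 41.1, 43.3 and 46.0 CPM in untreated WT libraries and at 20.6, 25.1 and 25.5 after recovery. In the ID3-KO libraries it stood at 83.2, 80.1 and 88.4 CPM untreated and at 37.9, 37.3 and 42.7 after recovery. Every recovered library was below every untreated library of its genotype. CDKN1B fell by 0.85 on the log2 scale in WT cells (SE 0.08, adjusted p = 1.8e-06) and by 1.10 in ID3-KO cells (SE 0.08, adjusted p = 6.7e-06).

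In U2OS cells CDKN1B stood at 39.8, 36.4 and 36.7 CPM in untreated WT libraries and at 22.6, 21.4 and 22.9 under mocetinostat. In the ID3-KO libraries it stood at 72.6, 72.1 and 68.4 CPM untreated and at 33.9, 35.5 and 36.5 under mocetinostat. The treated libraries were again the lower ones without overlap. CDKN1B fell by 0.76 in WT (SE 0.08, adjusted p = 0.00013) and by 1.01 in ID3-KO cells (SE 0.05, adjusted p = 1.8e-14). The WT fall was 0.71 without the library that stood apart.

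CDKN1B was also the member that separated the genotypes in each of the 4 comparisons of ID3-KO with WT cells, with no overlap between libraries in any. It was 1.91-fold higher in untreated AID-DIvA ID3-KO cells (log2 0.94, SE 0.06, adjusted p = 3.8e-09). In untreated U2OS ID3-KO cells it was 1.87-fold higher (log2 0.91, SE 0.07, adjusted p = 0.00030), or by log2 0.95 without the library that stood apart. After recovery it was 1.63-fold higher (log2 0.71, SE 0.10, adjusted p = 0.00070), and under mocetinostat in U2OS cells 1.58-fold higher (log2 0.66, SE 0.05, adjusted p = 5.9e-11). The recovered AID-DIvA ID3-KO cells (39.3 ± 2.95 CPM) overlapped the untreated WT cells of both lines (43.4 ± 2.48 and 37.7 ± 1.87 CPM), next to them in the order of levels.

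CDKN1C, whose product p57 acts mainly in development and which is imprinted, was low, between 2.17 and 8.14 CPM. In AID-DIvA WT cells it went from 3.18, 4.0 and 3.60 CPM to 2.31, 2.17 and 2.59 after recovery, a fall by 0.59 on the log2 scale (SE 0.12, adjusted p = 0.0013). In AID-DIvA ID3-KO cells it went from 5.99, 5.75 and 5.90 CPM to 4.50, 4.14 and 4.23, a fall by 0.46 (SE 0.08, adjusted p = 0.0021). The libraries did not overlap in either genotype. Those of ID3-KO cells lay above those of WT cells, by 0.69 untreated (SE 0.09, adjusted p = 2.3e-05) and by 0.84 after recovery (SE 0.11, adjusted p = 0.00047).

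In U2OS cells the untreated WT libraries had 8.14, 5.41 and 5.46 CPM of CDKN1C, the first from the replicate that stood apart, and the treated ones 4.97, 5.21 and 4.92. The difference of -0.34 (SE 0.17) was not called (adjusted p = 0.15), and it was -0.11 (adjusted p = 0.33) without that replicate. The U2OS ID3-KO libraries had 7.07, 6.90 and 6.10 CPM untreated and 5.42, 5.61 and 5.33 under mocetinostat, a fall by 0.29 (SE 0.09, adjusted p = 0.0047) that was not called in a fit of all 12 U2OS libraries (adjusted p = 0.090). The genotypes differed by 0.07 in untreated U2OS cells (95% interval -0.34 to 0.47, adjusted p = 0.83), and by 0.30 (adjusted p = 0.011) without the replicate that stood apart. Under mocetinostat they differed by 0.12 (-0.06 to 0.30, adjusted p = 0.31).

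CDKN2C, whose product p18 inhibits CDK4 and CDK6, had the largest fall among the members in each of the 4 treatment comparisons. It went from 61.2, 63.7 and 60.3 CPM to 17.6, 22.2 and 21.9 in AID-DIvA WT cells, and from 62.0, 60.9 and 68.4 to 23.1, 20.9 and 20.3 in AID-DIvA ID3-KO cells. In U2OS cells it went from 61.4, 50.7 and 48.5 CPM to 17.8, 15.1 and 18.6 in WT, and from 55.6, 56.7 and 57.3 to 20.3, 18.8 and 18.8 in ID3-KO libraries. All 12 treated libraries lay below 24 CPM and all 12 untreated ones above 48.

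CDKN2C fell by 1.56 and 1.58 on the log2 scale after recovery (WT, SE 0.08, adjusted p = 6.7e-09, and ID3-KO, SE 0.08, adjusted p = 7.2e-07). Before recovery it fell by 1.64 in WT (SE 0.12, adjusted p = 3.3e-05) and fell by 1.55 in ID3-KO cells (SE 0.05, adjusted p = 2.1e-17), and by 1.52 in WT cells without the library that stood apart. The genotypes differed by 0.03 in untreated AID-DIvA cells (95% interval -0.09 to 0.15, adjusted p = 0.68) and by 0.03 after recovery (-0.20 to 0.27, adjusted p = 0.86). In untreated U2OS cells they differed by 0.07 (-0.17 to 0.31, adjusted p = 0.69), or by 0.18 without the library that stood apart (adjusted p = 0.00038). Under mocetinostat every U2OS ID3-KO library exceeded every WT library, by 0.17 (0.03 to 0.30), at an adjusted p of 0.0502, just above the threshold. It was called with DESeq2's size factors (0.17, adjusted p = 0.048), with a replicate block (0.030), without replicate 3 of the treated WT cells (0.22, 0.033) and without replicate 2 of the treated ID3-KO cells (0.18, 0.034).

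CDKN2D, whose product p19 also inhibits CDK4 and CDK6, was lower after recovery and higher before it. In AID-DIvA WT cells it went from 11.5, 12.4 and 12 CPM to 6.04, 6.16 and 6.76, and in AID-DIvA ID3-KO cells from 15.4, 15.8 and 17.6 to 8.65, 7.59 and 7.38. It fell by 0.90 in WT (SE 0.07, adjusted p = 5.3e-07) and by 1.05 in ID3-KO cells (SE 0.09, adjusted p = 1.9e-05). The recovered libraries lay below the untreated ones without overlap in both genotypes.

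In U2OS cells the treated libraries were instead the higher ones without overlap. CDKN2D went from 17.5, 12.8 and 13.6 CPM to 21.4, 21.1 and 22.5 in WT, and from 15.5, 15.7 and 15.5 to 28.3, 25.7 and 26.8 in ID3-KO libraries. It rose by 0.56 in WT cells (SE 0.13, adjusted p = 0.0072), or by 0.72 without the replicate that stood apart, and by 0.79 in ID3-KO cells (SE 0.06, adjusted p = 2.8e-11). The treatment effect before recovery exceeded that after recovery by 1.46 in WT cells (SE 0.13, adjusted p = 1.3e-09) and by 1.84 in ID3-KO cells (SE 0.13, adjusted p = 1.6e-11), in a fit of all 24 libraries. The WT value was 1.61 without the replicate that stood apart.

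CDKN2D was higher in ID3-KO than in WT cells by 0.43 in untreated AID-DIvA cells (SE 0.07, adjusted p = 0.00016) and by 0.32 in treated U2OS cells (SE 0.06, adjusted p = 4.7e-05). After recovery the difference was 0.29 (SE 0.10, 95% interval 0.07 to 0.51) with no overlap of libraries, but an adjusted p of 0.057. It was called in a fit of all 12 AID-DIvA libraries (0.28, adjusted p = 0.024). In untreated U2OS cells it was 0.08 (-0.20 to 0.37, adjusted p = 0.69), or 0.24 without the replicate that stood apart (adjusted p = 0.0022).

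CDKN2A was nearly absent. Its counts over 3 libraries were 5 in untreated and 1 in recovered AID-DIvA WT cells, 5 and 4 in AID-DIvA ID3-KO cells, and 2 and 7 in untreated U2OS WT and ID3-KO cells. Under mocetinostat the U2OS libraries held 22, 21 and 23 counts in WT and 22, 19 and 31 in ID3-KO cells, so the treated ones lay far above the untreated. The ratio of treated to untreated CPM was 35.0 in WT (exact 95% counting interval 9.32 to 295) and 10.1 in ID3-KO cells (4.68 to 26.1). These intervals cover counting error only, and since CDKN2A passed the filter only through the treated group, its calls (adjusted p = 0.00097 and 1e-05) are no support beyond the counts.

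Almost none of these reads came from the strand of CDKN2A. Over the 24 libraries 165 reads lay on the strand opposite to CDKN2A and 3 on its own, a share of 1.79% on its own strand. The other 6 members had between 90.5% (CDKN2B) and 99.97% (CDKN2D) of their reads on the strand of the gene. In treated U2OS cells the opposite-strand counts were 22, 21 and 24 in WT and 23, 21 and 30 in ID3-KO libraries, and the own-strand counts were 0, 0 and 0, and 0, 0 and 2. When reads of the gene's own strand alone were counted, CDKN2A was not tested in any comparison. At 0 own-strand counts in 177518390 counts of the treated WT cells, a level up to 0.0169 CPM (3 counts) is allowed. What transcript the opposite-strand reads come from was not tested.

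MTAP, the gene of a methionine salvage enzyme on the opposite strand, ends 36.1 kb before CDKN2A. MTAP rose before recovery, by 0.87 on the log2 scale in WT (from 31.2 to 57.1 CPM, SE 0.07, adjusted p = 4.1e-05) and by 0.86 in ID3-KO cells (from 44.4 to 80.3 CPM, SE 0.05, adjusted p = 9.7e-14). CDKN2B-AS1, the noncoding gene that overlaps both members, had 14 and 16 counts in untreated and treated U2OS WT cells and 6 and 20 in ID3-KO cells, summed over 3 libraries.

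CDKN2B, whose product p15 is a target of TGF-beta signalling, had 3 or fewer counts per group in all 4 AID-DIvA groups. In U2OS WT cells it had 3, 4 and 4 counts untreated and 19, 11 and 9 under mocetinostat. In U2OS ID3-KO cells it had 1, 0 and 1 counts untreated and 5, 2 and 9 under mocetinostat. The treated libraries lay above the untreated ones without overlap in both, though in ID3-KO cells by as little as 2 counts against 1. The ratio of CPM was 3.76 in WT (exact 95% counting interval 1.89 to 8.15) and 7.88 in ID3-KO cells (1.85 to 70.7), and these intervals too cover counting error only. Unlike those of CDKN2A, the reads lay mainly on the strand of the gene: 39 of 39 in treated WT and 11 of 16 in treated ID3-KO cells. The highest level, 0.209 ± 0.0855 CPM in treated U2OS WT cells, was far below the 17.2 ± 1.80 CPM of CDKN2C there.

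**Figure D4:**
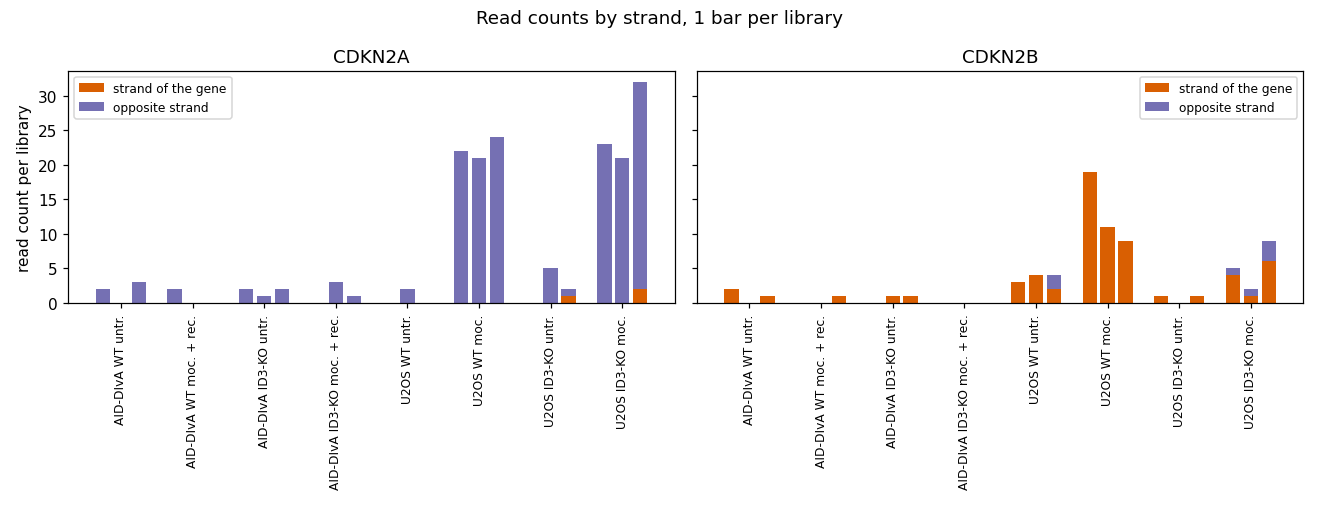
Each bar is 1 library, with reads on the strand of the gene in orange and reads on the opposite strand in purple, for CDKN2A (left) and CDKN2B (right); the vertical axis is the read count. The treated U2OS libraries stand out in both panels, and the CDKN2A bars there hold 0 to 2 reads of the gene's own strand.

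The difference between the genotypes in their response to treatment was tested for each member. No member was called in AID-DIvA cells (0 of 5 tested in 12 libraries, where 1.21% of 21265 genes were) or in U2OS cells (0 of 6, where 2.15% of 22647 genes were). DESeq2 also called 0 in each. The share of all genes with an unadjusted p below 0.05 is not given, and 1 member in each had such a p. In AID-DIvA cells this was CDKN1A, whose rise was smaller in ID3-KO cells by a log2 difference of -0.26 (95% interval -0.47 to -0.05, adjusted p = 0.28). In U2OS cells it was CDKN1B, whose fall was larger in ID3-KO cells by -0.25 (-0.44 to -0.06, adjusted p = 0.22). Without the U2OS WT library that stood apart the CDKN1B difference was -0.29 (adjusted p = 0.0042) and was called. The interval for CDKN2C was -0.26 to 0.25 in AID-DIvA and -0.19 to 0.38 in U2OS cells.

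Set by genotype, 4 of 5 members were called in untreated AID-DIvA cells, all higher in ID3-KO cells, where 36.7% of 20441 genes were called in either direction and 18.6% were higher. No member passed a change beyond 1 on the log2 scale in any genotype comparison, where 4.58%, 4.26%, 4.76% and 3.49% of genes did (untreated AID-DIvA, untreated U2OS, recovered AID-DIvA and treated U2OS cells). In untreated U2OS cells 1 of 5 was called, CDKN1B, where 15.2% of 20621 genes were, 6.56% higher. Without the library that stood apart CDKN1C, CDKN2C and CDKN2D were called too, which made 4 of 5. The 15.2% does not apply to that fit, whose standard errors were smaller (CDKN2C 0.04 against 0.10). Its share of all genes is not given, so the 4 of 5 is not a result about the members. After recovery 2 of 5 were called, CDKN1B and CDKN1C, where 23.7% of 20100 genes were, 12.6% higher. In treated U2OS cells 2 of 6 were called, CDKN1B and CDKN2D, where 37.9% of 21800 genes were, 19% higher. Without replicate 3 of the treated WT cells CDKN2C was called too, and CDKN2B, which then passed the filter through the group where it is high, brought the count to 4 and is no support. Between the stages the treatment effect differed for 3 of 6 members in WT cells (background 45.4% of 23087 genes) and for 2 of 6 in ID3-KO cells (46%). CDKN2D and the opposite-strand reads of CDKN2A were called in both, and CDKN1A in WT cells. Without CDKN2A, which passed the filter only through the treated U2OS cells, the counts were 2 of 5 and 1 of 5.

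**Figure D5:**
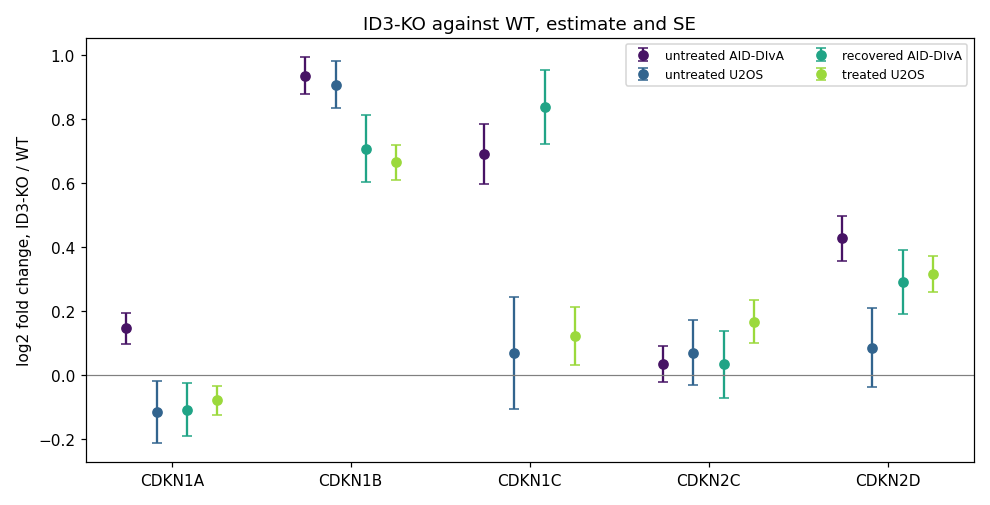
Points are log2 fold changes of ID3-KO against WT cells in the 4 genotype comparisons, with standard errors, each fitted on 6 libraries. CDKN1B lies at 0.94, 0.91, 0.71 and 0.66, while CDKN2C lies between 0.03 and 0.17.

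Among the 15593 genes with at least 1 CPM on average, those that followed each member most closely over the 24 libraries were named by Pearson's r of log2 CPM, a description in which the libraries share treatment and cell line. For CDKN1A they were TMEM59L, FSD1 and PSD (r = 0.97 each). For CDKN1B they were TPGS2, UCP2 and KDELC2 (r = 0.96 each), and for CDKN1C they were ADRBK1 (0.95), RP11-54O7.3 (0.94) and EVL (0.94). CDKN2C was followed by ARHGEF39, HMGN2 and RGS12 (r = 0.98 each), of which HMGN2 encodes a nucleosome-binding protein. CDKN2D was followed by WBSCR17 and DAPK2 (r = 0.98 each) and by UBE2S (0.96), a ubiquitin-conjugating enzyme of the anaphase-promoting complex. Among the members, CDKN1A and CDKN2C ran in opposite directions (r = -0.89), CDKN1B and CDKN2C together (0.78), and CDKN2C and CDKN2D bore little relation (0.04).

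The kinases and cyclins that the inhibitors act on went in both directions. Of 11 CDKs and cyclins, 3 rose and 4 fell after recovery in WT cells and 3 rose and 3 fell in ID3-KO cells. Before recovery 2 rose and 6 fell in WT cells and 4 rose and 7 fell in ID3-KO cells. Over all genes 46.9% and 40.1% were called after recovery and 48.9% and 69.9% before it (WT and ID3-KO), and these shares are the background of all the list counts that follow. CCNA2, the S and G2 phase partner of CDK2 and CDK1, fell in all 4, by 0.71 (SE 0.04), 1.0 (SE 0.09), 0.82 (SE 0.07) and 0.82 (SE 0.04) in the same order. CCND2, a cyclin D, rose by 0.73 (SE 0.04) and 0.71 (SE 0.05) after recovery, and CCND3 rose by 0.63 (SE 0.10) and 0.55 (SE 0.06) before it. Of the 3 pocket proteins none rose, and 2, 2, 1 and 2 fell. Before recovery the WT fit includes the library that stood apart, and precision differed between the genotypes. RBL2, a pocket protein, had -0.31 (SE 0.12, adjusted p = 0.057) in WT and -0.40 (SE 0.05, adjusted p = 4.9e-08) in ID3-KO cells. The list counts before recovery, here and below, therefore do not compare the size of the 2 genotypes' responses. RB1, the retinoblastoma protein, fell by 0.60 (SE 0.06) and 0.72 (SE 0.15) after recovery, while its values before recovery were -0.06 and -0.00 (adjusted p = 0.70 and 0.95). The adjusted p values of the calls named here ranged up to 0.0042.

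Of 18 regulators listed for these genes, 6 rose and 9 fell in WT cells (17 tested) and 4 rose and 8 fell in ID3-KO cells after recovery. Before recovery 4 rose and 4 fell in WT, and 3 rose and 10 fell in ID3-KO cells. MYC, which can repress CDKN1A and CDKN2B, rose by 1.43 (SE 0.04, from 201 to 532 CPM) and 1.65 (SE 0.08, from 157 to 494 CPM) after recovery. BMI1, a Polycomb protein that represses the CDKN2A locus, fell by 0.81 (SE 0.08) and 1.05 (SE 0.26). Before recovery FOXO1, a transcription factor that can activate CDKN1B, rose by 1.82 (SE 0.15) and 1.89 (SE 0.08). SKP2 was lower in all 4 comparisons, with log2 values of -0.38 (SE 0.04) and -0.42 (SE 0.08) after recovery and -0.36 (SE 0.07) and -0.34 (SE 0.05) before it (adjusted p at most 0.0040). The other adjusted p values of these calls were at most 0.0097.

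Of the 7 ID and E protein genes, 3 rose and 2 fell after recovery in both genotypes, and before recovery 3 rose and 3 fell in WT and 4 rose and 3 fell in ID3-KO cells. ID4 rose by 0.77 (SE 0.09) and 0.73 (SE 0.12) after and by 1.68 (SE 0.11) and 2.14 (SE 0.10) before recovery, and ID2 rose by 1.29 (SE 0.09) and 1.22 (SE 0.09) before it. The E protein gene TCF4 fell by 0.79 (SE 0.05), 0.78 (SE 0.10), 1.38 (SE 0.16) and 1.36 (SE 0.05). Of 7 neighbours of the CDKN1C and CDKN2A loci, 6 were tested. After recovery 2 rose and 2 fell in each genotype. KCNQ1OT1, the noncoding RNA of the imprinted domain that holds CDKN1C, fell by 0.80 (SE 0.09) and 0.67 (SE 0.16), and its neighbour PHLDA2 rose by 0.42 (SE 0.08) and 0.59 (SE 0.12). Before recovery 2 rose in each genotype, PHLDA2 by 1.13 (SE 0.21) and 1.35 (SE 0.08) and MTAP as given above, and 1 fell in WT and 2 in ID3-KO cells. DMRTA1, a neighbour of CDKN2B, fell by 0.38 (SE 0.09) and by 0.42 (SE 0.09), and SLC22A18 fell by 0.29 (SE 0.06) in ID3-KO cells, against -0.25 (adjusted p = 0.18) in WT cells. The adjusted p values of these calls were at most 0.011.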

How the data were processed

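The authors aligned paired 100 bp reads of stranded total RNA to hg19/GRCh37 with STAR and deposited featureCounts counts per gene from either strand and by strand, and TPM values. The counts from either strand were used for all tests, the reverse-strand counts (the strand of the gene) as an alternative, and TPM only to compare levels between genes. The AID-DIvA groups follow the sample titles. Fits used edgeR 4.0.16 under R 4.3.3, with TMM scaling, filterByExpr and a robust quasi-likelihood fit, and p was adjusted by Benjamini-Hochberg over all genes tested. Comparisons of 2 groups used their own 6 libraries, interactions 12 and stage differences 24. An SE is the estimate over the root of its F statistic, and 95% intervals use the t quantile. Printed CPM are TMM-normalized over all 24 libraries. DESeq2 1.42.0 was an alternative. Named genes were all 7 members, the 3 genes most alike each member, overlapping genes, ID3 and, per list and treatment comparison, up to 2 highest and 2 lowest fold changes at 1 CPM or more. One listed regulator and a gene list are not reported here. Members and lists were chosen with earlier results of these data known. The fits were tested on simulated counts, with log2 changes of 1 or 2 placed in well-counted genes only. That test did not cover genes as low as CDKN2A and CDKN2B, smaller differences or a library that stands apart.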

Additional observations from a re-analysis of the deposited data

Results flagged for a closer look

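The treatment effect of CDKN2D (both genotypes) and CDKN1A (WT cells) differed between the stages, 2 of 5 members in WT and 1 of 5 in ID3-KO cells where 45.4% and 46% of all genes were called, by a test of the difference itself in a fit of all 24 libraries (edgeR's quasi-likelihood test, Benjamini-Hochberg adjustment). For CDKN2D the effect before recovery minus that after recovery was 1.46 in WT (adjusted p = 1.3e-09) and 1.84 in ID3-KO cells (adjusted p = 1.6e-11). All 6 treated U2OS libraries lay above their untreated group, and all 6 recovered AID-DIvA libraries lay below theirs. CDKN2A was also called, but it passed the filter only through the treated U2OS cells, so its p gives no support. Its value was 6.63 in WT (adjusted p = 0.0014) and 3.21 in ID3-KO cells (adjusted p = 0.042), fitted values that rest on 1 to 7 counts in the other groups and on opposite-strand reads in the treated U2OS cells. The ID3-KO call was lost without any 1 of 8 libraries (adjusted p from 0.0502 to 0.12): replicates 1 and 3 of the recovered and of the untreated AID-DIvA ID3-KO cells and of the untreated U2OS ID3-KO cells, replicate 3 of the treated U2OS ID3-KO cells and replicate 1 of the treated U2OS WT cells. The stage fit shares its spread over all 24 libraries. For CDKN1A it was -0.29 in WT cells (adjusted p = 0.040), a smaller rise before recovery. That call was lost with DESeq2 (adjusted p = 0.053), with at least 10 counts in every library (0.073), and without any 1 of 7 libraries (adjusted p from 0.070 to 0.11): replicates 2 and 3 of the recovered and 1 and 2 of the untreated AID-DIvA WT cells, replicates 1 and 2 of the treated U2OS WT cells, and the untreated U2OS WT library that stood apart (-0.19, adjusted p = 0.089). The stage, the cell line and the library set cannot be told apart in any of these.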

How the results depend on the processing

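Calls of the 4 treatment comparisons and of CDKN1B between genotypes kept their side of the threshold under every normalization, filter, strand, DESeq2 and left-out-library setting in which the gene was tested, except CDKN1C before recovery in ID3-KO cells in the fit of 12 libraries. With a log2 fold change beyond 1 required as well, the members called were 2 and 3 after recovery and 2 and 3 before it (WT and ID3-KO), and 0 in each genotype comparison. Over all genes the shares were 7.38% and 7.46% after recovery, 18.6% and 20.3% before it, and 3.49% to 4.76% between genotypes. The counts before recovery include CDKN2A, which passed the filter only through the treated U2OS cells and is no support. Stage differences called 1 member in WT and 1 in ID3-KO cells with at least 10 counts in every library, where CDKN2A was not tested, and 1 in ID3-KO cells with reverse-strand counts. Leaving out 1 library gave 1 to 4 members in untreated and 2 to 4 in treated U2OS genotype comparisons, and 3 to 4 in untreated AID-DIvA cells. It gave 5 to 6 for treatment of WT cells before recovery and 0 to 1 for the U2OS interaction. For the stage difference it gave 2 to 3 in WT cells, where CDKN1C was called without the library that stood apart (0.47, adjusted p = 0.0064), and 1 to 3 in ID3-KO cells. The shares of all genes called in these altered fits are not given, so their counts are no result about the members.

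Replicate numbers did not pair the samples: of 36 pairs of same-numbered libraries 11 had a correlation of deviations over 0.1, and the range was -0.43 to 0.36. With the replicate number as a block, the stage difference in ID3-KO cells called 1 member, CDKN2A being lost (3.20, adjusted p = 0.059), CDKN2C was called between the treated U2OS genotypes (0.17, adjusted p = 0.030), and no other call of a member changed.

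The differences that changed sign were near 0 in the main fits, but some moved away from 0 when 1 library was left out. The CDKN2C interaction in AID-DIvA cells was 0.00054 with DESeq2's size factors, 0.011 without a filter on low counts, 0.011 with at least 10 counts, 0.00095 with DESeq2 and 0.0081 with reverse-strand counts. The CDKN1A stage difference in ID3-KO cells was -0.00037 with DESeq2's size factors, -0.0020 with DESeq2 and -0.0087 with reverse-strand counts. With 1 library left out, CDKN2C between genotypes ranged from -0.037 to 0.080 in untreated and from -0.078 to 0.11 in recovered AID-DIvA cells. In untreated U2OS cells CDKN1C ranged from -0.039 to 0.30 and CDKN2D from -0.0054 to 0.24. The upper ends came from the fit without the library that stood apart, where both were called (adjusted p = 0.011 and 0.0022). The interaction of CDKN2C ranged from -0.12 to 0.062 in AID-DIvA and from -0.024 to 0.17 in U2OS cells, where CDKN1A ranged from -0.073 to 0.097 and CDKN1C from -0.18 to 0.16. The stage difference ranged from -0.013 to 0.15 for CDKN1B and from -0.19 to 0.031 for CDKN2C in WT cells, and from -0.052 to 0.078 for CDKN1A and from -0.034 to 0.075 for CDKN2C in ID3-KO cells. Depth limits CDKN2A and CDKN2B, whose values rest on 31 counts per library or fewer.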
